A study of Mus musculus with 73 samples.

Results

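Control adrenals of adult mice were compared between the sexes at 12 weeks of age, with 4 libraries from females (XX) and 5 from males (XY), 9 of the 73 samples in the series. The members were taken by their labels of sex, genotype and age, without any measured value, and the comparison was made over autosomal genes. The study profiled poly(A) RNA of whole adrenals from wild-type mice and from mice in which Sf1-Cre deletes floxed Znrf3 in steroidogenic cells (Znrf3 cKO), at ages from 4 to 78 weeks. Both groups here are labelled WT, the mice of the study were kept on a C57Bl/6 background, and no treatment is named for them. Control libraries of 4, 6 and 78 weeks (4 per sex and age) and Znrf3 cKO libraries of 12 weeks (4 per sex) were used only to ask whether a sex difference of the 12-week controls was of another size there. Nothing in the sources used here says whether each library came from 1 mouse, so the p-values measure the spread between libraries.

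The adrenal gland holds a steroidogenic cortex, which makes aldosterone in the outer zona glomerulosa and corticosterone in the zona fasciculata, around a medulla of catecholamine-producing chromaffin cells. In mice an inner cortical layer of fetal origin, the X-zone, is lost at puberty in males and later in females. It is known by expression of Akr1c18, a 20α-hydroxysteroid dehydrogenase that inactivates progesterone, and of the lipid kinase gene Pik3c2g. Androgens and other sex hormones are known to shape the size, turnover and immune content of the mouse cortex, which is why control adrenals of both sexes are the baseline for any sex difference in the mutants.

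Expression is given as RPKM, a read count set against transcript length and library size, scaled jointly over the libraries compared. A log2 fold change is the female minus the male mean of log2(RPKM + 1), so that positive values are higher in females, and it carries its standard error (SE). An adjusted p is that of limma with the Benjamini-Hochberg method over all autosomal genes tested, and a gene was called where it lay below 0.05. The low RPKM values rise in steps of 1 read, which gave about 44400000 to 47400000 reads per female library and 18400000 to 38400000 per male library. Xist was at 65.8 to 87.7 RPKM in the female and 0.0151 to 0.0567 in the male libraries, and Ddx3y at 0.00906 to 0.0376 and 17.4 to 23.0, as labelled. Cortical (Star, Cyp11a1, Cyp11b1, Cyp21a1, Nr5a1) and chromaffin (Th, Dbh, Chga) markers were at 55.5 RPKM or more in every library.

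The libraries of the sexes also differ in their numbering. All male libraries of 4, 6 and 12 weeks bear lower running numbers in their titles than any female library, whereas male libraries of 78 weeks bear numbers within the range of the females. At 78 weeks the males and the females still bear separate runs of numbers. The low and the higher numbers are called library sets here, and no label names a batch. Rpl21-ps13 and Bc1 were picked as markers of these sets after the data were seen, so their split is no independent evidence. The processed pseudogene Rpl21-ps13 was at 0.114 to 1.26 RPKM in the 17 libraries with low numbers, all male, and at 15.9 to 58.1 in the other 24, of which 20 were female. Bc1, a short neuronal noncoding RNA, was at 15.8 to 1000 and 2.82 to 38.1 RPKM in the same sets. Among the males of 12 weeks Bc1 had the same order as the summed RPKM of chromaffin genes, lowest in replicate 5 and highest in replicate 3. Whether Bc1 follows the medulla in the tissue rather than the set was not tested. In the 12-week controls 45.8% of pseudogenes were called against 39.0% of protein-coding genes, whereas at 78 weeks these shares were 1.89% and 7.81%. At 12 weeks the median log2 fold change of protein-coding genes ran from -0.28 for transcripts up to 1000 bases to 0.11 for those above 8000 bases. At 78 weeks it was -0.056 and 0.052 in these classes, and lowest, at -0.071, for transcripts of 1000 to 2000 bases. Sex and library set cannot be told apart at 12 weeks, so values at 78 weeks, where 6.43% of genes were called (2.19% higher in females and 4.23% in males), are given beside many of the results. Calls at 78 weeks depended on single males. They numbered 1260 with all libraries, 2662 without male replicate 1 of that age and 449 without male replicate 2. Females of that age were not left out in turn for this count.

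**Figure D1:**
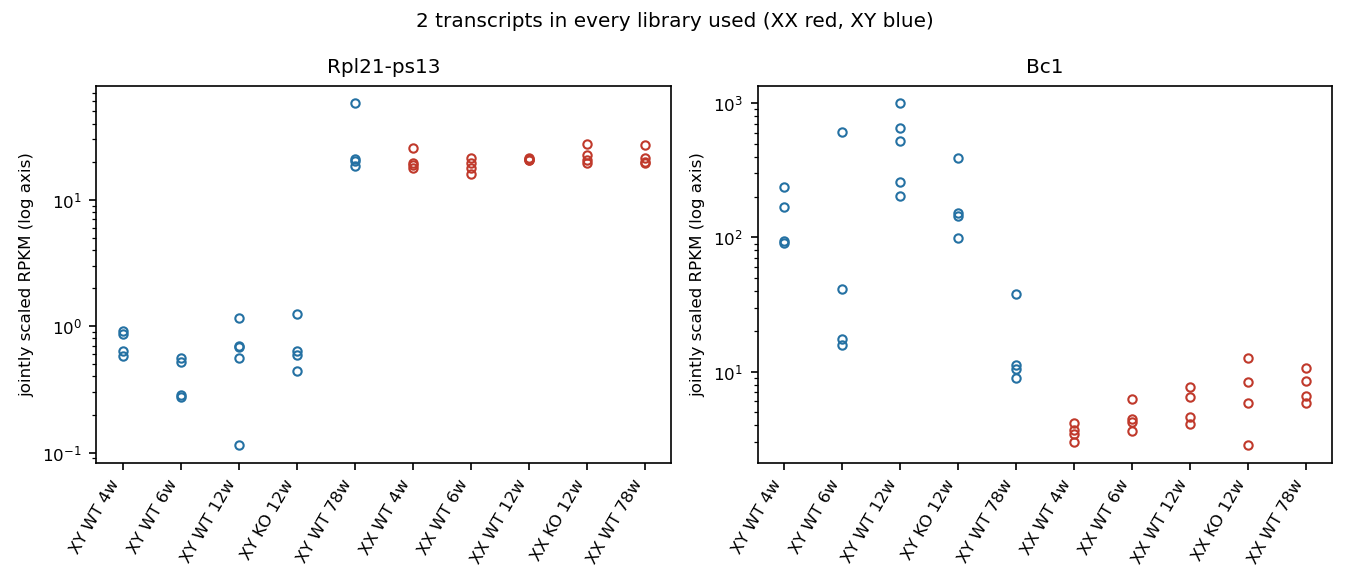
Jointly scaled RPKM (log axes) of Rpl21-ps13 and Bc1 in the 41 libraries used, by sex, genotype and age, with 1 point per library. Both transcripts were picked after the data were seen. Male libraries of 4, 6 and 12 weeks are at most at 1.26 RPKM for Rpl21-ps13 (left), whereas male libraries of 78 weeks lie with the female libraries.

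Of 18816 autosomal genes tested, 4037 (21.5%) were higher in females and 3286 (17.5%) were higher in males, together 38.9%. The libraries of the sexes did not overlap for 35.1% of the genes. With a log2 fold change of at least 1 in either direction besides, 732 genes (3.89%) were higher in females and 492 (2.61%) in males. The balance of the calls depended on the scaling: females had 55.1% of the calls with joint scaling, 47.2% with values rescaled to a common sum and 36.7% with the values as deposited, in which the median of all genes lay 0.106 lower on the log2 scale. Libraries of 1 sex resembled each other more than those of the other, with Pearson correlations across genes of 0.983 to 0.991 among females, 0.969 to 0.982 among males and 0.911 to 0.933 between the sexes.

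Among named protein-coding genes, the largest female-high differences on the log2(RPKM + 1) scale were in enzymes that reduce steroids. Akr1d1 encodes Δ4-3-ketosteroid 5β-reductase, which reduces cortisol-like and other Δ4 steroids in liver. It was at 1086, 1103, 1076 and 814 RPKM in the female libraries and at 0.111, 0.269, 0.0443, 0.198 and 0.137 in the male libraries. Every female library was thus at a high level and every male library close to 0, and the log2 fold change was 9.78 ± 0.11 (SE, adjusted p = 1.08e-11). Akr1c18 was at 1655, 2090, 413 and 1416 RPKM in females and at 0.222, 4.78, 1.55, 0.125 and 1.20 in males (log2 fold change 9.13 ± 0.56, adjusted p = 1.19e-06). Female replicate 3 stood below the other females for Akr1c18 but not for Akr1d1. The addition of 1 compresses the fold of genes near 0 in a sex, so the order of genes depends on it: in a fit to the recovered reads (limma-voom) the log2 fold changes of Akr1d1, Akr1c18, Obp2a and Pik3c2g rose to 12.9, 10.4, 9.89 and 12.4.

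Promoter windows, the 250 bases before the annotated start in RefSeq (GRCm38.p6), are shown for both enzymes, for Srd5a2, the male-high steroid reductase described below, and for Susd3. Of the 8 female-high and 11 male-high genes with the largest differences and windows at hand, only Susd3 had the motif CAAGGTCA (or its complement TGACCTTG), which binds NR5A factors such as SF-1 and is in capitals.
Akr1d1, chr6:37529923-37530172, plus strand: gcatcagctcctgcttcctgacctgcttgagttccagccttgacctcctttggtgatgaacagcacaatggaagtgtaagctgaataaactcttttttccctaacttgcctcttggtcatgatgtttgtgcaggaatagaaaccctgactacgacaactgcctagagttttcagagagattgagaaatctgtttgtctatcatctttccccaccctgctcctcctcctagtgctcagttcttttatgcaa
Akr1c18, chr13:4150647-4150896, minus strand: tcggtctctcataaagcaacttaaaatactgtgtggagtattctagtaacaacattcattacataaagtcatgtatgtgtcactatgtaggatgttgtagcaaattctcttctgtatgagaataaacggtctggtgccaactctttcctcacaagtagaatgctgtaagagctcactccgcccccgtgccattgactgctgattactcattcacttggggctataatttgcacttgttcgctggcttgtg
Srd5a2, chr17:74047861-74048110, minus strand: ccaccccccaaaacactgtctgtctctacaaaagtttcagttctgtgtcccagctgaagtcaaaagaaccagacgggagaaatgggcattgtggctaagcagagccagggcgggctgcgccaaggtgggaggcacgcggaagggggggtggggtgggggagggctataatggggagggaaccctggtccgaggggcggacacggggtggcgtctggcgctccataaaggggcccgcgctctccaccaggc
Susd3, chr13:49248295-49248544, minus strand: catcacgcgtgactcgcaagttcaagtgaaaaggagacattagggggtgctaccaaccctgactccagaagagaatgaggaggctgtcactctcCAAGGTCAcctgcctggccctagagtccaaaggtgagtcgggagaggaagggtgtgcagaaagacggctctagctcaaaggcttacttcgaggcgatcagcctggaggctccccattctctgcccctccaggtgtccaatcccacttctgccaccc
Windows were at hand for 8 of the 12 female-high and 11 of the 12 male-high genes, and not for Serpinb1a, Cd1d1, Nrep, Prr16 and Rpl23a. Fetub and Aldh1a1 had more than 1 window, so the counts here are of genes, whereas the shares are of windows. CAAGGTCA was in 0 of the 8 and in 1 of the 11, and in 1.35% of 31396 autosomal windows of the same length. The motif AGAACA (or TGTTCT), a single arm of the sites that androgen and glucocorticoid receptors bind, was in 1 of the 8 (Fetub, in 1 of its windows), in 1 of the 11 (Cxcr4) and in 16.1% of all windows. These are matches of letters in a short window and say nothing of binding.

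The other female-high genes of the upper rank had varied roles. Cyp2f2, a cytochrome P450 known from lung, was at 88.7, 141, 269 and 381 RPKM in females and at 0.164 to 1.16 in males (log2 fold change 7.06 ± 0.38, adjusted p = 4.02e-07). Frzb, a secreted frizzled-related antagonist of WNT ligands, was at 201, 184, 176 and 134 RPKM in females and at 0.456 to 0.769 in males (6.68 ± 0.12, adjusted p = 1.14e-10). For both genes the sexes were far apart, and the female libraries spread more widely for Cyp2f2 than for Frzb. Serpinb1a, a protease inhibitor, averaged 107 ± 30.7 RPKM (SD, n = 4) against 4.31 ± 3.19 (n = 5), and the complement component C3 averaged 393 ± 189 against 38.7 ± 27.5. Cd1d1, which presents lipid antigens to NKT cells, averaged 301 ± 26.4 RPKM against 14.2 ± 4.66, and its neighbour and near copy Cd1d2, named after its values were seen, 136 ± 15.6 against 6.72 ± 2.43. The reads of this pair cannot be assigned with certainty to either copy. At 78 weeks Cyp2f2, Serpinb1a and C3 were again higher in females (4.72 ± 0.64, 2.89 ± 0.56 and 2.21 ± 0.30, adjusted p = 0.00892, 0.0219 and 0.00892).

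Obp2a, an odorant-binding lipocalin, was at 41.0, 91.7, 16.8 and 8.33 RPKM in females, and 2 reads were found over the 5 male libraries. Nrep averaged 157 ± 86.9 RPKM in females and 7.20 ± 2.60 in males, Fetub, a plasma protease inhibitor of the fetuin family, 46.7 ± 35.2 and 0.990 ± 0.256, and Prr16, known to promote translation, 20.9 ± 3.58 and 0.862 ± 0.511. Female replicate 3 was the lowest of the females for Akr1c18, Pik3c2g, Nrep, Oxtr and Fetub. It was the highest of the females for C3, at 631 RPKM.

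**Figure D2:**
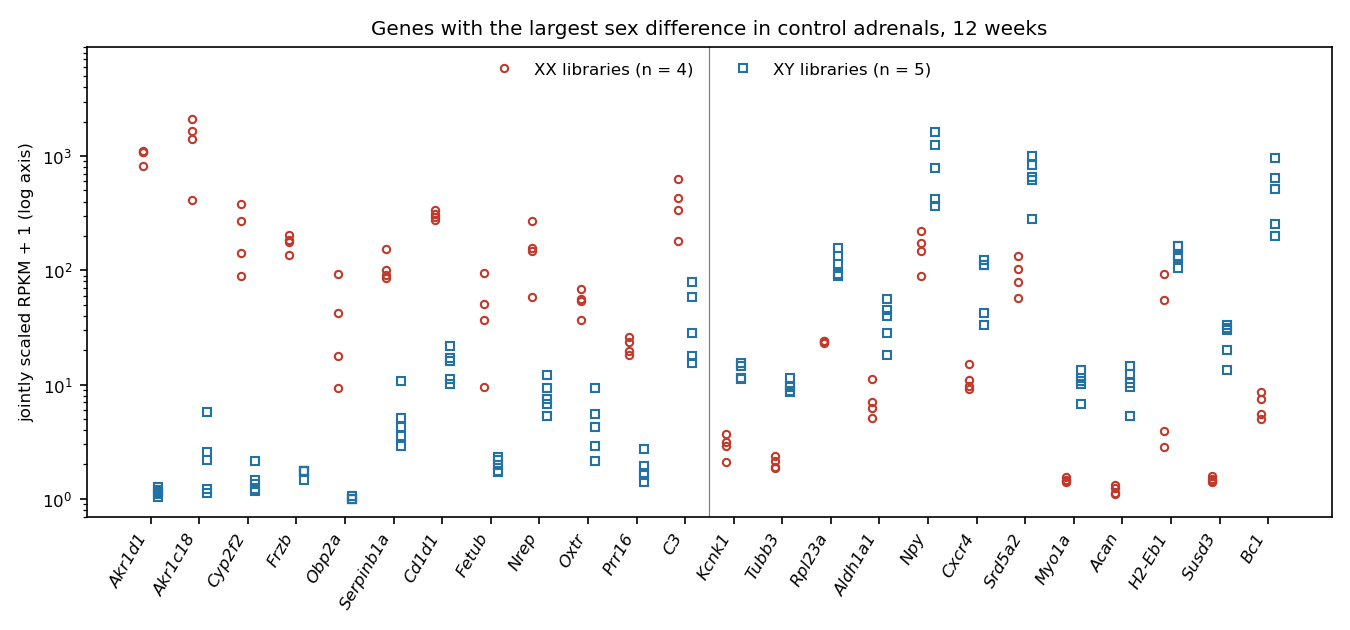
Jointly scaled RPKM + 1 (log axis) in each female (red circles, n = 4) and male (blue squares, n = 5) control library at 12 weeks, for the 12 female-high (left of the line) and 12 male-high (right) genes with the largest log2 fold changes by the naming rule. The sexes do not overlap for any of the 24, which the rule required, and H2-Eb1 splits the female libraries into a pair at 1.85 and 2.90 RPKM and a pair at 53.8 and 91.7.

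The X-zone list (Akr1c18, Pik3c2g, Thrb and Cyp17a1) had 3 of 4 members (75%) higher in females, beside 21.5% of all genes, and 0 higher in males. Pik3c2g was at 16.9, 32.3, 1.73 and 5.34 RPKM in females, and 1 read was found over the 5 male libraries (log2 fold change 3.33 ± 0.59, adjusted p = 0.00174). Thrb, the thyroid hormone receptor β gene, averaged 11.5 ± 3.27 RPKM in females against 3.07 ± 0.621 in males (1.59 ± 0.17, adjusted p = 6.89e-05). Cyp17a1, the 17α-hydroxylase gene that mouse adrenals largely lack after birth, was low in both sexes, at 0.0411 to 0.151 and 0.0948 to 1.08 RPKM, and was not called (-0.51 ± 0.19, adjusted p = 0.0611). It was called higher in males with a pseudocount of 0.1, with array weights, in a joint fit with the Znrf3 cKO groups, with voom on the recovered reads and without male replicate 3. In bulk tissue, fewer cells of a type and less RNA per cell cannot be told apart.

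The largest differences on the male side were smaller. Susd3, a membrane protein with a sushi domain, was at 12.5, 32.2, 29.3, 18.9 and 30.3 RPKM in males and at 0.414 to 0.573 in females (log2 fold change -4.05 ± 0.24, adjusted p = 9.74e-07). Srd5a2, a steroid 5α-reductase that converts testosterone to dihydrotestosterone, was at 1002, 829, 279, 615 and 651 RPKM in males and at 77.8, 134, 56.3 and 101 in females (-2.81 ± 0.36, adjusted p = 2.68e-04). Its paralog Srd5a1 went the other way, at 2.77 ± 0.619 RPKM in males and 9.02 ± 2.32 in females (1.39 ± 0.17, adjusted p = 1.86e-04). In RPKM, Srd5a2 was thus the more abundant of the pair in each of the 9 libraries.

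Acan, the core protein of the proteoglycan aggrecan, averaged 9.35 ± 3.40 RPKM in males and 0.189 ± 0.0998 in females. Myo1a, a brush-border myosin, averaged 9.53 ± 2.44 and 0.464 ± 0.0628, and Kcnk1, a tandem-pore potassium channel, 12.4 ± 1.94 and 1.96 ± 0.664. Cxcr4, the receptor of the chemokine CXCL12, was at 110, 110, 41.4, 32.2 and 121 RPKM in males and at 8.22 to 14.2 in females (-2.73 ± 0.40, adjusted p = 5.91e-04). Aldh1a1, a retinaldehyde dehydrogenase, averaged 36.5 ± 14.9 and 6.42 ± 2.68 RPKM. Tubb3, a neuronal tubulin, averaged 8.61 ± 1.14 and 1.06 ± 0.231. Of the genes of this rank, Cxcr4, Kcnk1, Susd3 and Tubb3 were also called higher in males at 78 weeks (adjusted p = 0.0115, 0.00899, 0.0363 and 0.0149), whereas Acan, Myo1a and Srd5a2 were not (adjusted p = 0.051, 0.486 and 0.216).

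A pair of the male-high genes, Bc1 and the ribosomal protein gene Rpl23a, were among those higher in the libraries with low numbers, although the ranges of the sets overlapped for both. Bc1 was at 199 to 968 RPKM in the male and 4.01 to 7.57 in the female controls of 12 weeks, and Rpl23a at 87.6 to 155 and 22.2 to 23.1. At 78 weeks their log2 fold changes were -0.82 ± 0.42 (adjusted p = 0.312) and -0.12 ± 0.41 (adjusted p = 0.904).

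Steroidogenesis was the next question, since the enzymes of corticosterone synthesis are the main products of these cells. Of 18 members tested, 7 were higher in females and 0 in males, beside 21.5% and 17.5% of all genes. Cyp11b1, the last enzyme of corticosterone synthesis, was at 2724, 2756, 3301 and 2819 RPKM in females and at 1786, 1742, 1028, 2080 and 1781 in males (0.82 ± 0.21, adjusted p = 0.0135). Mc2r, the ACTH receptor, averaged 243 ± 20.9 RPKM against 136 ± 9.37 (0.83 ± 0.10, adjusted p = 1.21e-04), and Hsd3b1, a 3β-hydroxysteroid dehydrogenase, 8901 ± 906 against 5400 ± 952 (0.74 ± 0.22, adjusted p = 0.0238). The sexes did not overlap for these 3 genes. Hsd3b1 and Cyp11b1 were not called without the filter on low values (adjusted p = 0.649 and 0.186), and Hsd3b1 was not called without any 1 of the females (adjusted p = 0.0509 to 0.0834). The count of 7 fell to 2 without that filter, and to 4 without any 1 of the females or without male replicate 2. With either other scaling 2 members were higher in males, and at 78 weeks 0 of 18 were called in either direction, with a median of 0.46.

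Other steps of the pathway did not pass the test. Star, which delivers cholesterol to mitochondria, was at 2690, 2759, 2169 and 2528 RPKM in females and at 2603, 2657, 932, 3744 and 2000 in males (0.22 ± 0.35, adjusted p = 0.649). Male replicate 3 was the lowest of all 9 for Star, Cyp11a1 and Cyp11b1. Cyp11a1, the side-chain cleavage enzyme (named after its values were seen), averaged 940 ± 168 RPKM in females and 1356 ± 372 in males (-0.49 ± 0.25, adjusted p = 0.140). Cyp11b2, aldosterone synthase, averaged 678 ± 78.2 and 656 ± 121 RPKM (0.06 ± 0.16, adjusted p = 0.790). Cyp11b1 and Cyp11b2 are near copies whose reads may be shared in part.

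Several genes of cholesterol biosynthesis were higher in females. In that list 9 of 24 members (37.5%) were higher in females, beside 21.5% of all genes, and 0 in males, with a median log2 fold change of 0.27 beside 0.011 over all genes tested. Hmgcs1, an early synthase of the pathway, was at 67.9, 77.8, 39.3 and 52.8 RPKM in females and at 19.5, 13.1, 15.3, 22.8 and 12.2 in males (1.77 ± 0.23, adjusted p = 2.44e-04). The sexes did not overlap. Hsd17b7, a reductase of the same pathway, averaged 7.75 ± 3.63 and 1.84 ± 0.934 RPKM. Leaving out female replicate 1 lowered the count from 9 to 5, and either other scaling called 1 member higher in males. At 78 weeks 3 of 24 were higher in females, beside 2.19% of all genes, and 0 in males. Without male replicate 1 of that age 8 were higher in females.

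Of 15 genes of cholesterol uptake, storage and trafficking, 4 (26.7%) were higher in females and 1 (6.67%) in males, beside 21.5% and 17.5% of all genes, with a median of 0.014. Lipa, the lysosomal lipase that frees cholesterol from its esters, was at 128, 139, 152 and 141 RPKM in females and at 31.5 to 39.1 in males (1.95 ± 0.09, adjusted p = 9.01e-08). Abca1, a cholesterol exporter, averaged 62.0 ± 6.59 against 22.0 ± 7.96 RPKM, and Cd36, a fatty acid and lipoprotein receptor, 130 ± 31.3 against 47.1 ± 25.5. Enzymes that inactivate or conjugate steroids were called both ways, 4 of 13 (30.8%) higher in females (Akr1d1, Akr1c18 and Srd5a1 among them) and 3 (23.1%) in males (Srd5a2 among them). At 78 weeks 2 of 16 uptake and 2 of 14 inactivation genes were higher in females and 0 in males, beside 2.19% and 4.23% of all genes.

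Enzymes of glutathione and xenobiotic metabolism were also called both ways, 7 of 30 (23.3%) higher in females and 10 (33.3%) in males, beside 21.5% and 17.5% of all genes. At 78 weeks 3 and 2 of 30 were, beside 2.19% and 4.23%. Adh1, an alcohol and retinol dehydrogenase named after its values were seen, was at 1600 to 1835 RPKM in females and 98.3 to 419 in males (2.98 ± 0.38, adjusted p = 2.28e-04), and Mgst1, a microsomal glutathione transferase, averaged 488 ± 43.6 against 167 ± 22.3. The cytosolic transferases Gstm1 and Gstm2 averaged 129 ± 9.96 and 51.6 ± 4.01 RPKM in females and 273 ± 30.2 and 139 ± 18.5 in males, and they are close copies that may share reads. Hmox1, heme oxygenase 1 (named after its values were seen), averaged 17.0 ± 3.87 RPKM in females and 70.9 ± 20.5 in males (-1.98 ± 0.20, adjusted p = 5.39e-05).

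**Figure D3:**
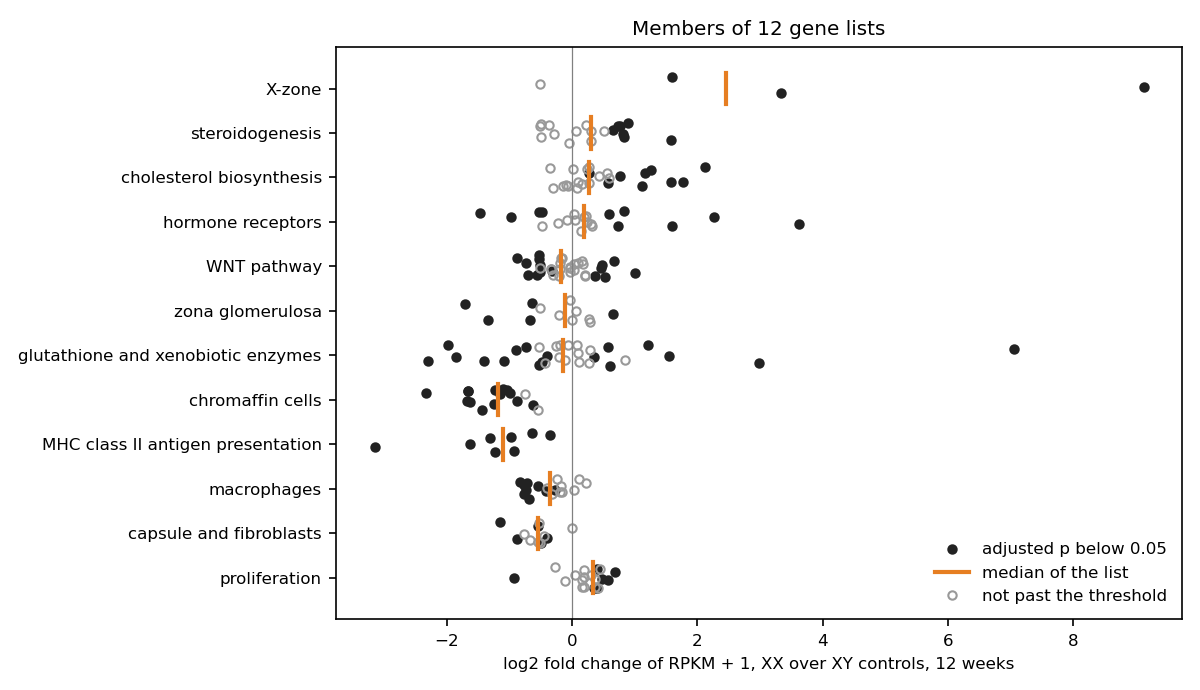
Log2 fold changes (RPKM + 1, females over males, 12-week controls) of the tested members of 12 gene lists, 1 point per gene. Filled points passed an adjusted p of 0.05, open points did not, and the bars are list medians. All 14 called chromaffin genes and all 8 MHC class II genes lie below 0.

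Chromaffin genes were higher in males. Of 16 members, 14 (87.5%) were higher in males, beside 17.5% of all genes, and 0 were higher in females. Their median log2 fold change was -1.2. Th, the rate-limiting enzyme of catecholamine synthesis, was at 204, 349, 507, 784 and 146 RPKM in males and at 84.0, 131, 136 and 81.5 in females (-1.66 ± 0.44, adjusted p = 0.0148). Npy, a peptide cotransmitter, was at 421, 789, 1238, 1616 and 362 RPKM in males and at 88.7, 171, 219 and 147 in females (-2.33 ± 0.46, adjusted p = 0.00300). Both genes varied widely among the males, and male replicate 5 came closest to the females for both. Penk, the enkephalin precursor, averaged 17.3 ± 3.61 RPKM in males and 4.95 ± 1.23 in females, Ddc, aromatic amino acid decarboxylase, 17.2 ± 4.22 and 6.83 ± 1.89, and Slc18a1, a vesicular monoamine transporter, 14.5 ± 3.66 and 6.17 ± 1.36. Chga, a granule protein, averaged 1057 ± 418 and 421 ± 97.6 and its libraries overlapped, as male replicate 5 was at 511 and female replicate 2 at 520.

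The sum of the chromaffin list was 2920 to 8615 RPKM in males and 1367 to 2317 in females. At 78 weeks 11 of 16 members were higher in males and 0 in females, beside 4.23% of all genes, and the median was -1.4. There the males bear numbers within the range of the females, but in a run of their own. The proportion of medulla in each piece of tissue was not measured. In the list of Schwann and sustentacular cells 2 of 5 members (40%) were higher in males at 12 weeks, beside 17.5% of all genes, with a median of -0.48. At 78 weeks 3 were, beside 4.23% of all genes.

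Genes of antigen presentation on MHC class II were all higher in males. All 8 members were called, beside 17.5% of all genes, with a median of -1.1. Cd74, the invariant chain, was at 336, 263, 304, 391 and 283 RPKM in males and at 127, 133, 103 and 182 in females (-1.22 ± 0.17, adjusted p = 4.55e-04). H2-Aa averaged 122 ± 9.04 against 51.3 ± 20.7 RPKM, H2-Ab1 (named after its values were seen) 101 ± 15.4 against 34.9 ± 19.4, H2-DMa, which helps load peptides, 9.93 ± 1.67 against 4.78 ± 1.10, and Ciita, the master activator of these genes, 1.76 ± 0.218 against 0.785 ± 0.215. H2-Eb1 had another pattern, at 2.90, 1.85, 53.8 and 91.7 RPKM in females and at 103 to 164 in males (-3.15 ± 0.96, adjusted p = 0.0258). Female replicates 1 and 2 lay far below replicates 3 and 4, and 1 of the 4 female controls of 6 weeks was equally low, at 1.97. The H2 haplotype of the mice is not given in the sources used here. Without female replicate 1 or 2 or male replicate 3, H2-Eb1 was not called (adjusted p = 0.0734, 0.0675 and 0.0501), nor was it with array weights (0.0744) or without the filter on low values (0.0619), whereas at least 7 of the 8 members were called without any 1 library.

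Macrophage genes differed by less. Of 18 members, 9 (50%) were higher in males and 0 in females, beside 17.5% and 21.5% of all genes, with a median of -0.36. C1qa, a complement subunit made by tissue macrophages, was at 76.6, 66.1, 93.2, 84.1 and 67.5 RPKM in males and at 40.1, 51.1, 38.3 and 50.5 in females (-0.77 ± 0.13, adjusted p = 0.00146). C1qb averaged 71.2 ± 9.83 and 44.1 ± 6.68 RPKM, Tyrobp, an adaptor of activating receptors, 47.1 ± 7.55 and 25.8 ± 3.07, and Fcgr1, which encodes CD64, 3.73 ± 0.426 and 2.26 ± 0.436. The common macrophage marker Adgre1, encoding F4/80, averaged 6.50 ± 1.05 and 4.59 ± 0.590 and overlapped between the sexes (-0.42 ± 0.12, adjusted p = 0.0183, but 0.0589 and 0.0508 without female replicate 1 or 3), and Cd68 averaged 14.6 ± 2.85 and 10.8 ± 1.61 and was not called (adjusted p = 0.0545). Mertk, a receptor for engulfment of dying cells, was at 5.12 ± 0.372 and 4.46 ± 0.701 RPKM (adjusted p = 0.169). The summed list was 476 to 593 RPKM in males and 376 to 438 in females.

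Another list held phagocytosis and secretory genes picked in the published work with its own samples in view, so its count is not independent evidence. Of 23 tested, 10 (43.5%) were higher in males, beside 17.5% of all genes, and 1, Gas6, was higher in females, beside 21.5%. Gas6, a bridging ligand for MERTK and AXL, was at 90.9, 74.2, 143 and 95.9 RPKM in females and at 40.5 to 63.5 in males (0.85 ± 0.19, adjusted p = 0.00620). Axl averaged 17.8 ± 2.27 RPKM in males and 12.6 ± 0.663 in females (adjusted p = 0.00507), and Lgals3, galectin 3, 11.6 ± 1.96 and 7.05 ± 2.24 (adjusted p = 0.0152, but 0.102 in a joint fit with the Znrf3 cKO groups). Gas6, Axl and Lgals3 were named after their values were seen.

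At 78 weeks 0 of 8 MHC class II and 0 of 20 macrophage members were called in either direction, with medians of -0.046 and 0.40. As 6.43% of all genes were called there (4.23% higher in males), counts of 0 in lists of this size lay close to the background. Leaving out male replicate 1 of 78 weeks, which stood apart, also gave 0 calls in both lists. The sex difference itself differed between 12 and 78 weeks for 5 of the 8 and for 7 of the 20 macrophage genes listed, beside 6.84% of all genes. As the males of 12 weeks and of 78 weeks belong to different library sets, age and library set cannot be told apart here. At 4 weeks, where the sets divide the sexes as at 12 weeks, 0 of 8 and 0 of 20 were called either, beside 23.1% of all genes. At 6 weeks, with the same division, 6 of 8 MHC class II genes (median -0.96) and 6 of 19 macrophage genes (median -0.15) were higher in males, beside 21.9% of all genes, and 0 and 1 were higher in females, beside 22.6%. Female replicate 1 of 4 weeks stood above the other females of that age for such genes. Its Cd74 was at 405 RPKM against 115 to 145, and its Tyrobp at 61.7 against 23.0 to 26.5. The calls of these lists at 4 weeks were not tested without that library.

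The WNT pathway was of interest because ZNRF3 removes WNT receptors from the cell surface. Of 34 members, 6 (17.6%) were higher in females and 9 (26.5%) in males, beside 21.5% and 17.5% of all genes, and the median was -0.17. At 78 weeks 0 were higher in females and 1 in males, beside 2.19% and 4.23% of all genes, with a median of -0.0024. Znrf3 itself was at 4.18, 4.10, 4.68 and 6.87 RPKM in females and at 4.75, 4.48, 6.4, 2.90 and 4.54 in males (0.09 ± 0.18, adjusted p = 0.718). Lgr4, a receptor of R-spondins, averaged 33.3 ± 4.81 RPKM in females and 16.2 ± 2.41 in males (1.0 ± 0.13, adjusted p = 2.20e-04). Its ligand Rspo3, made by the capsule, averaged 8.60 ± 3.67 and 16.0 ± 4.33 with overlapping libraries (-0.88 ± 0.28, adjusted p = 0.0296), and without any 1 of 3 females (replicates 1, 2 and 4) or of 2 males (replicates 3 and 5) it was not called. Axin2, a common target of the pathway (named after its values were seen), averaged 6.66 ± 0.692 RPKM in females and 10.1 ± 1.71 in males (-0.53 ± 0.12, adjusted p = 0.00711), and the transcription factor Tcf7 13.5 ± 1.60 and 23.2 ± 4.70 (-0.73 ± 0.14, adjusted p = 0.00253). Frzb, above, is an antagonist outside this list.

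Zona glomerulosa genes were called in 5 of 12 cases, beside 38.9% of all genes, and 4 of them (33.3%) were higher in males, beside 17.5%. At 78 weeks 2 of 12 were called, both higher in males, beside 4.23% of all genes. Kcnk9, which encodes the background potassium channel TASK-3, was at 89.2, 89.5, 72.4, 118 and 87.1 RPKM in males and at 22.9 to 31.2 in females (-1.70 ± 0.14, adjusted p = 1.27e-05). Shh, the hedgehog ligand made by subcapsular progenitors, averaged 15.4 ± 6.50 RPKM in males and 5.18 ± 0.597 in females (-1.33 ± 0.24, adjusted p = 0.00200), and the calcium channel gene Cacna1h 42.0 ± 4.84 and 26.6 ± 2.91. At 78 weeks Kcnk9 was again higher in males (-1.48 ± 0.34, adjusted p = 0.0377). The member that was higher in females was Hsd3b6, at 210, 413, 361 and 436 RPKM against 184 to 273 in males (0.65 ± 0.21, adjusted p = 0.0342). It was not called with either other scaling (adjusted p = 0.0628 and 0.0747), nor without any 1 of female replicates 2 to 4 or male replicates 1 to 4. Of 7 zona fasciculata genes 2 (28.6%, Cyp11b1 and Mc2r) were higher in females and 1 (14.3%) in males, near the 21.5% and 17.5% of all genes. At 78 weeks 0 were called.

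Among 21 hormone receptors and hormone subunits, 6 (28.6%) were higher in females and 4 (19%) in males, beside 21.5% and 17.5% of all genes. At 78 weeks 3 and 2 of 25 were, beside 2.19% and 4.23%. Prlr, the prolactin receptor, was at 32.4, 32.8, 39.0 and 32.3 RPKM in females and at 5.37, 5.55, 5.69, 8.73 and 6.52 in males (2.27 ± 0.13, adjusted p = 6.28e-07). Oxtr, the oxytocin receptor, was at 54.5, 67.4, 35.4 and 53.3 RPKM in females and at 1.14 to 8.34 in males (3.63 ± 0.38, adjusted p = 6.76e-05). Vdr, the vitamin D receptor, averaged 5.38 ± 1.03 RPKM in males and 1.31 ± 0.381 in females (-1.47 ± 0.15, adjusted p = 4.97e-05). None of these 3 genes overlapped between the sexes at 12 weeks, and at 78 weeks Prlr and Vdr were called in the same direction (adjusted p = 0.0352 and 0.00844) and Oxtr was not (1.45 ± 0.46, adjusted p = 0.107).

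Proliferation genes were called in 7 of 20 cases, 6 (30%) higher in females and 1 (5%) in males, beside 21.5% and 17.5% of all genes. Mki67, expressed in dividing cells, was at 1.71, 1.46, 3.87 and 3.38 RPKM in females and at 0.924 to 1.38 in males (0.69 ± 0.20, adjusted p = 0.0190), with female replicates 3 and 4 above the other pair. Without female replicate 4, or in a joint fit with the Znrf3 cKO groups, 0 of 20 were called higher in females, and with array weights 11 were. The count was 1 without female replicate 3 or male replicate 1 or 2, 2 without the filter on low values or with the values as deposited, and 3 without male replicate 3 or 5. At 78 weeks 5 of 20 were higher in females, beside 2.19% of all genes, and 0 in males, with a median of 0.38. Of 12 senescence genes 3 (25%) were higher in females, near the 21.5% of all genes, and 0 in males. Cdkn1a, which encodes the cell cycle inhibitor p21, was not called (9.47 ± 4.84 and 6.49 ± 2.00 RPKM, adjusted p = 0.265). At 78 weeks 1 of the 12 was higher in females, beside 2.19% of all genes.

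Capsule, smooth muscle and erythroid markers leaned to males where they were called, and endothelial markers lay near the background. Of 12 capsule and fibroblast genes 5 (41.7%) were higher in males, beside 17.5% of all genes, among them Rspo3, and Mgp, a matrix protein, averaged 123 ± 35 RPKM in males and 56.6 ± 22.4 in females, with male replicate 5 among the females (-1.15 ± 0.29, adjusted p = 0.0103). Smooth muscle and pericyte genes were higher in males in 4 of 6 cases (66.7%, list median -0.43), with Acta2 at 28.4 ± 11.8 and 11.4 ± 2.79 RPKM (-1.19 ± 0.26, adjusted p = 0.00553). Endothelial genes were higher in males in 3 of 12 cases (25%), beside 17.5% of all genes, with a list median of -0.0085. Erythroid genes were higher in males in 2 of 4 cases (50%, list median -1.1), with the globin gene Hba-a1, which has a near-identical copy, at 254 ± 84.9 and 96.4 ± 35 RPKM. These lists had 0 members higher in females. The capsule count of 5 fell to 2 without the filter on low values or without female replicate 1 or 2, was 3 without female replicate 3 or male replicate 1, 2, 3 or 5, and rose to 8 without male replicate 4. Without female replicate 2 the smooth muscle count fell from 4 to 2, as it did without the filter, and the endothelial count from 3 to 1, whereas the erythroid count rose from 2 to 4 without male replicate 3 or with either other scaling. At 78 weeks the capsule, smooth muscle and erythroid lists had 0 calls and the endothelial list 1, higher in males. Adipocyte and mast cell genes gave 0 calls among 11 and 5 tested, although the adipocyte sum ran from 191 to 1763 RPKM among females and from 194 to 1365 among males. Lymphocyte, neutrophil, kidney, liver, pancreas and gonad lists had 1 to 6 members each that could be tested, and at most 1 call in a direction. The T and NK cell and gonad calls were higher in females, and the neutrophil and pancreas calls in males.

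Lists that bear on handling lay near the background. Of 9 immediate early genes 2 (22.2%) were higher in males, beside 17.5% of all genes, among them Jun, at 70.3 ± 20.3 and 31.3 ± 4.58 RPKM (-1.11 ± 0.19, adjusted p = 0.00142). Without female replicate 1 or 2 or male replicate 1, 2, 3 or 5 the count was 1. Of 15 circadian clock genes 3 (20%) were higher in females, beside 21.5% of all genes, among them the repressor gene Nr1d1, at 73.8 ± 9.82 and 39.6 ± 6.85 RPKM (0.89 ± 0.14, adjusted p = 9.45e-04). The time of day of collection is not given in the sources used here, and its part in these differences was not tested.

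The 12-week differences were then set beside those of other ages. At 4, 6 and 78 weeks 23.1%, 44.5% and 6.43% of genes were called between control females and males. The sex difference differed between 12 and 4 weeks for 66 genes (0.338% of those tested), between 12 and 6 weeks for 160 (0.823%) and between 12 and 78 weeks for 1363 (6.84%). These comparisons share the 12-week libraries. Leaving out single libraries moved the first count to between 26 (without female replicate 4 of 4 weeks) and 112 (without male replicate 4 of 12 weeks), the next to between 61 (without male replicate 2 of 6 weeks) and 478 (without male replicate 4 of 12 weeks), and the last to between 996 and 3670, the highest being without male replicate 1 of 78 weeks. The counts of 4 and 6 weeks thus rest on single libraries, since 9 and 11 of the 17 libraries moved them by more than 1.5 times when left out.

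Akr1c18 was high in females of 4, 6 and 12 weeks, with means of 3326, 1452 and 1394 RPKM, and low at 78 weeks, at 7.24 to 21.8, within the range of the males of that age (0.73 to 135). In males it was at 2.78, 22.9, 489 and 994 RPKM at 4 weeks and at most 4.78 at 6 and 12 weeks. At 78 weeks the sexes did not differ past the threshold (log2 fold change 0.70 ± 1.19, adjusted p = 0.80), and the change of the sex difference from 12 weeks was 8.45 ± 1.36 (adjusted p = 7.20e-04). The 4-week males, unlike those of 6 and 12 weeks, thus spanned the range from the adult male level to near the lowest female of that age, at 1304.

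Akr1d1 had female means of 272, 650, 1020 and 147 RPKM at 4, 6, 12 and 78 weeks, and at 78 weeks males were at 0.609 to 52.1. Its sex difference was larger at 12 weeks than at 4 weeks by 4.93 ± 0.80 (adjusted p = 0.0122) and than at 78 weeks by 5.15 ± 0.97 (adjusted p = 0.00304). Frzb was among the 6 genes with the smallest interaction p between 12 and 4 weeks (difference 4.68 ± 0.29, adjusted p = 5.12e-07). Its female means were 141, 175, 174 and 68.4 RPKM at 4, 6, 12 and 78 weeks, whereas the male means were 36.3, 7.20, 0.695 and 9.43. Of the named genes it alone also differed between 12 and 6 weeks in a direction of greater female excess (2.17 ± 0.43, adjusted p = 0.0250).

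Susd3 was at 4.06 RPKM in 4-week males and at 39.9, 24.6 and 24.5 in males of 6, 12 and 78 weeks, and its sex difference was larger at 12 than at 4 weeks by 2.53 in size (adjusted p = 0.0205). Aldh1a1 was higher in females at 4 weeks (1.42 ± 0.33, adjusted p = 0.0152) and higher in males at 12 weeks (-2.30 ± 0.33, adjusted p = 5.08e-04), and the interaction was -3.72 ± 0.50 (adjusted p = 0.00372). Prlr kept the same direction at all ages, with log2 fold changes of 1.05, 1.92, 2.27 and 1.72 at 4, 6, 12 and 78 weeks, each past the threshold. Among genes of the X-zone list 1 of 3 tested members was called at 78 weeks, where Pik3c2g did not pass the filter.

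**Figure D4:**
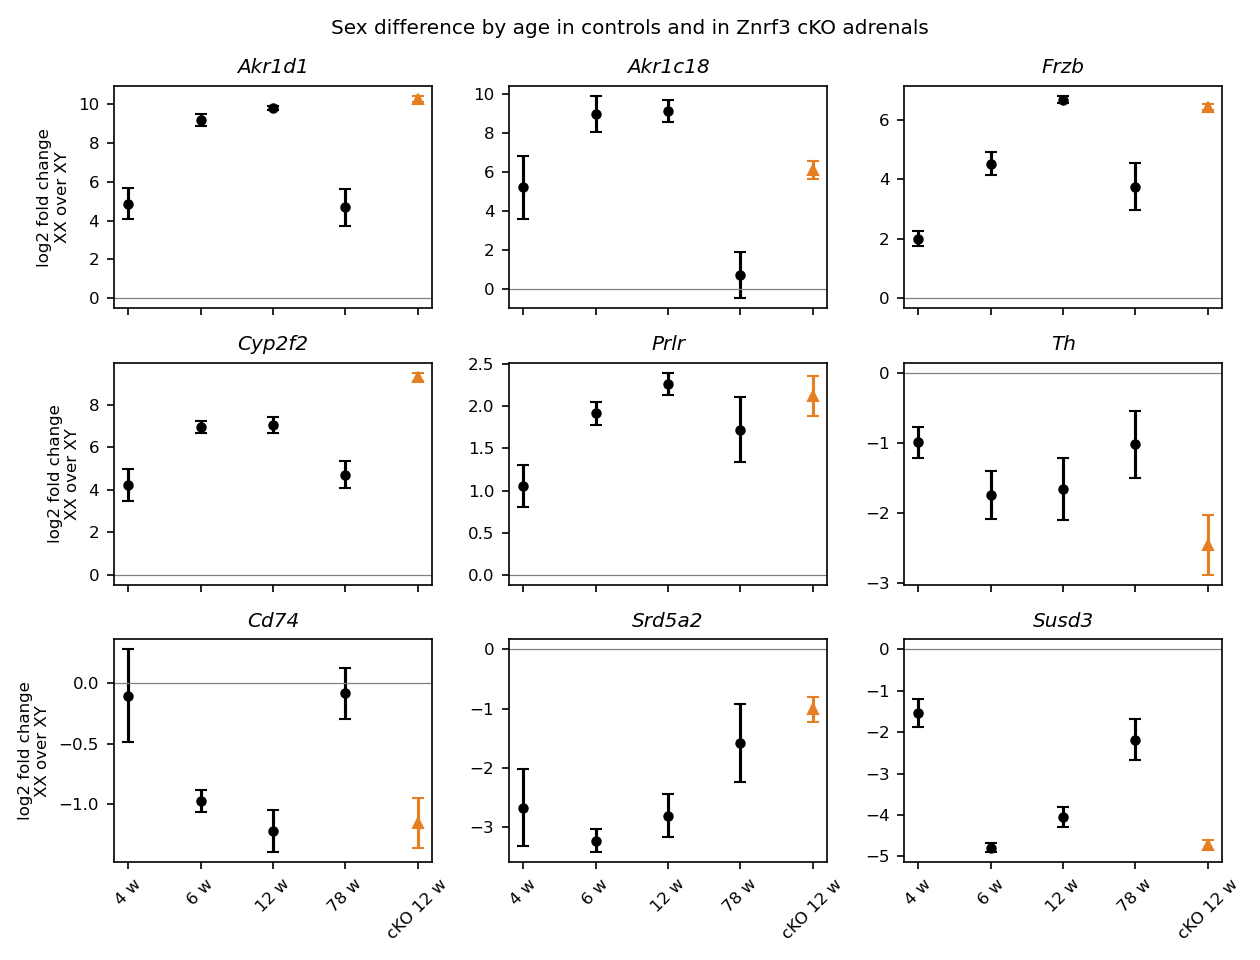
Log2 fold change (RPKM + 1, females over males) of 9 genes in controls of 4, 6, 12 and 78 weeks (black circles) and in Znrf3 cKO adrenals of 12 weeks (orange triangles), with bars of 1 SE from the fit. Akr1c18 goes from 9.13 at 12 weeks to 0.70 at 78 weeks, and Cd74 is near 0 at 4 and 78 weeks. At 4 weeks Cd74 was far higher in female replicate 1 than in the other females.

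Genes with large differences at 12 weeks could be followed at 78 weeks, where the males bear numbers within the range of the females, but in a run of their own. Of 211 protein-coding genes called higher in females at 12 weeks with a log2 fold change of at least 1 and tested at 78 weeks, 203 had the same sign and 81 were called, and the median went from 1.37 to 0.753. Of 253 such male-high genes, 224 had the same sign and 89 were called, with medians of -1.25 and -0.824. Of 423 female-high pseudogenes, 197 had the same sign and 9 were called, and the median went from 2.00 to -0.0214. Of 206 male-high pseudogenes, 159 had the same sign and 1 was called, with medians of -1.34 and -0.139. Of all 13454 protein-coding genes tested at 78 weeks, 312 were called higher in females and 739 in males. Of all 3749 pseudogenes, 58 and 13 were, so the calls of the followed pseudogenes lay near that background. Protein-coding genes of both directions and male-high pseudogenes mostly kept their sign. The share of each sign over all genes was not taken, so the sign counts have no background here. These numbers were not taken again without male replicate 1 of 78 weeks, whose omission raised all calls of that age from 1260 to 2662.

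**Figure D5:**
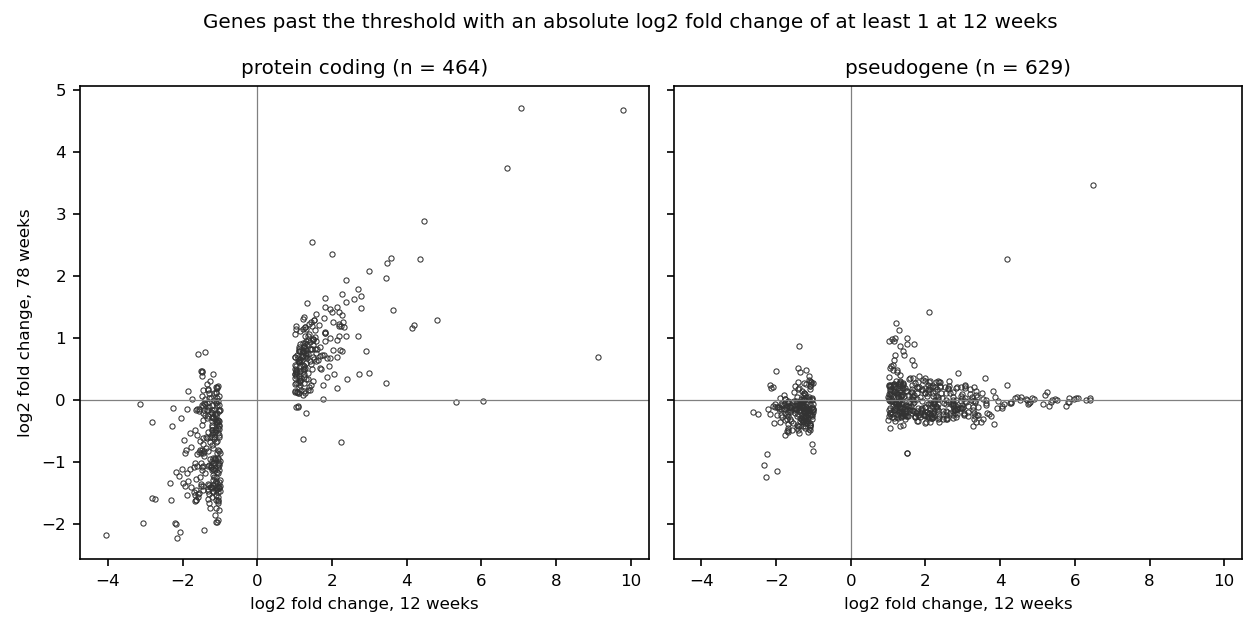
Log2 fold change (females over males) at 12 weeks (x axis) and 78 weeks (y axis) of the protein-coding genes (n = 464) and pseudogenes (n = 629) that were called at 12 weeks with a log2 fold change of at least 1 in either direction and tested at 78 weeks. Protein-coding genes lie along a rising band and most pseudogenes closer to 0 on the y axis, with medians there of -0.0214 (female-high) and -0.139 (male-high).

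In Znrf3 cKO adrenals of 12 weeks 52.7% of genes differed between the sexes, and the sex difference was of another size than in controls for 1087 genes (5.57%), or 628 without male cKO replicate 3 and 659 without female control replicate 4. The library sets divide the sexes alike in both genotypes. Of the genes above, Akr1c18 had a smaller female excess in the mutants (6.07 ± 0.47 against 9.13 ± 0.56, interaction adjusted p = 0.0373), with mutant females at 114 to 308 RPKM. Cyp2f2 had a larger one (9.32 ± 0.18 against 7.06 ± 0.38, interaction adjusted p = 0.0102), as did the dehydrogenase gene Adh7, at 4.74 ± 0.18 against 1.99 ± 0.19 (interaction adjusted p = 1.25e-04). The male excess of Srd5a2 was smaller in the mutants (-1.01 ± 0.21 against -2.81 ± 0.36, interaction adjusted p = 0.0319). Cd68, with no called difference in controls, and Lgals3, with a small one, were far higher in mutant males, at 73.3 to 288 and 110 to 422 RPKM against 11.4 to 19.6 and 7.23 to 14.7 in mutant females (interaction adjusted p = 9.56e-04 and 4.03e-04). Of 26 phagocytosis and secretory genes tested in the mutants 21 were higher in males, beside 25.6% of all genes, but the list was picked with these mutants in view, so the count is no independent evidence. For 13 of these genes the sex difference differed between mutants and controls, and the macrophage list had 8 such genes, the MHC class II list 0 and the chromaffin list 0.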

How the data were processed

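Poly(A) RNA of whole adrenals was sequenced as stranded TruSeq libraries from 300 ng of RNA. Per the submitters' processing notes, reads were demultiplexed with bcl2fastq 2.17.1.14 (the methods name another version), trimmed with cutadapt 3.2, checked with FastQC 0.11.7 and aligned to mm10 with HISAT2 2.2.1. The authors counted reads per gene, ran DESeq2 1.34.0 and deposited RPKM for 54838 genes, scaled within groups. The 37 mitochondrial genes are listed at 0 in every library. Library sizes recovered from the RPKM steps made 98.2 to 98.7% of values under 1000 reads whole (tolerance 0.02 reads).

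The libraries compared were rescaled jointly by median-of-ratios factors over 50502 autosomal genes (0.946 to 0.952 for females and 1.02 to 1.06 for males). Genes whose mean reached 0.5 RPKM in females or males were tested on log2(RPKM + 1) with limma 3.58.1 (trend) in R 4.3.3, with Benjamini-Hochberg adjustment and a threshold of 0.05. Interactions of sex with age or genotype were fitted over 4 groups. The scripts were tested on simulated data. Groups came from the labels, and replicates are numbered in accession order. Alternatives were other scalings, pseudocounts, filters and models, and leaving out each library.

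Named genes were up to 12 per direction with the largest changes (at least 5 RPKM, no overlap, no predicted genes), up to 4 called members of each list by p, and a set of fixed genes. The 6 genes with the smallest interaction p per test were added, and the predicted genes (Gm numbers) among them are not reported here. Adh1, Cd1d2, Chga, Dbh, Gas6, Lgals3, Axl, Cyp11a1, Hmox1, H2-Ab1 and Axin2 were added after their values were seen. Rpl21-ps13 and Bc1 were likewise picked to show the library sets, and Bc1 also met the rule of largest changes. Members, lists and tests were chosen with earlier results of these data known. Columns of 78-week female cKO libraries that repeat those of males were not used here. Some list members are counted but not reported here by name.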

Additional observations from a re-analysis of the deposited data

Results flagged for a closer look

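In 9 of 170 groups of a named gene at 12 weeks a single library lay far from the rest of its group, where chance alone marks about 1 in 20 groups. These were Akr1d1 in female replicate 4 (814 RPKM), Prlr and Cyp11b1 in female replicate 3 (39.0 and 3301), Serpinb1a and Ciita in male replicate 1 (9.84 and 2.14), Obp2a in male replicate 3 (0.069), Hsd17b7 in male replicate 4 (3.49), and Frzb and Pik3c2g in male replicate 5 (0.456 and 0.00209).

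The sex difference of a named gene departed from that of another age or genotype in the following cases, given as the female minus male log2 difference of the 12-week controls minus that of the other libraries. Against 4 weeks it was larger on the female side for Akr1d1 (4.93), Frzb (4.68), Obp2a (4.48), Serpinb1a (3.13), Adh1 (2.63), Cd1d2 (2.11), Lipa (1.27) and Mc2r (0.79), and shifted to the male side for Aldh1a1 (-3.72), Susd3 (-2.53) and Kcnk1 (-1.59). Against 6 weeks Frzb (2.17) and Rpl23a (-1.08) departed.

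Against 78 weeks the female side was larger for Akr1c18 (8.45), Akr1d1 (5.15), Obp2a (3.58), Pik3c2g (3.51), Fetub (2.98), Frzb (2.96), Nrep (2.96), Oxtr (2.18), Cd1d1 (2.07), Cd1d2 (1.91), Prr16 (1.32) and Hmgcs1 (1.03). The male side was larger for Bc1 (-5.29) and Rpl23a (-2.17), which were higher in the libraries with low numbers, for Myo1a (-2.50), Gstm1 (-1.31), Gstm2 (-1.36) and Hmox1 (-1.35), for the macrophage genes C1qa (-1.19), C1qb (-1.05), Tyrobp (-1.16), Fcgr1 (-0.69) and Adgre1 (-0.99), and for the MHC class II genes Cd74 (-1.16), H2-Aa (-1.29), H2-Ab1 (-1.51) and H2-DMa (-1.01). Age and library set cannot be told apart in these contrasts.

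Against Znrf3 cKO adrenals of 12 weeks the values were positive for Lgals3 (3.89), Cd68 (3.14), Akr1c18 (3.03), Aldh1a1 (2.25), Tyrobp (2.15), Tubb3 (1.36), Mertk (1.31), C1qb (1.25), Hsd3b6 (0.98), Kcnk9 (0.95), Axl (0.72) and Gstm2 (0.63). They were negative for Adh7 (-2.77), Adh1 (-2.43), Cyp2f2 (-2.28), Oxtr (-1.96), Srd5a2 (-1.81), Gas6 (-1.15), Myo1a (-1.05) and Mgst1 (-0.83).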

How the results depend on the processing

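No paired analysis was possible because the labels give the sexes no shared replicate numbers. Requiring a log2 fold change of 1 or more in size left 1224 called genes, 732 higher in females and 492 in males. Leaving out single libraries gave 5833 to 8490 calls, of which 3304 to 4658 were higher in females and 2529 to 3832 in males. Genes whose sex difference differed from 12 weeks numbered 66 at 4 weeks (35 with no filter, 26 to 112 leaving out libraries), 160 at 6 weeks (310 with values rescaled to a common sum, 83 with no filter, 61 to 478) and 1363 at 78 weeks (996 to 3670). The interaction with Znrf3 genotype gave 1087 (679 with a common sum, 628 to 1353). The 1260 calls of 78 weeks became 449 to 2662 when single males of that age were left out. The highest counts at 78 weeks came without male replicate 1 (2662 calls, 3670 interactions). Steroidogenesis genes higher in females numbered 7 (2 with no filter, 4 to 9 leaving out libraries) and cholesterol biosynthesis genes 9 (5 to 13). Values of some genes that were not called changed sign. The log2 fold change of Znrf3 was -0.0215 as deposited and ran from -0.0487 to 0.198 leaving out libraries, below 0 without female replicate 4 or male replicate 4. That of Cyp11b2 was -0.0774 as deposited and ran from -0.0438 to 0.145, below 0 without replicate 3 of either sex, and that of Star ran from -0.0882 (without male replicate 3) to 0.412. The causes were not tested.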
